A study of Homo sapiens with 2 samples.

Results

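The genes described are 7 large genes that lie at common fragile sites, FHIT, WWOX, IMMP2L, MACROD2, LRP1B, DLG2 and CNTNAP2. They were chosen by name and by their bounds in hg19, given to the nearest 1 kb. This rule uses no measured value, but genes and measures were chosen with earlier results of these data known. An interval belonged to a gene or to 1 of its 1 Mb flanks by its midpoint. By this rule 86 of the 161869 nascent strand intervals of the study lay in the 7 genes and 308 in the 14 flanks. The genes span 11.951 Mb, from 0.9 Mb (IMMP2L) to 2.305 Mb (CNTNAP2). The data come from 2 libraries of U2OS, a human osteosarcoma cell line labelled as wild type, which form the only group. Cells were held at the G1/S border with a double thymidine block and collected 2 hours after release. Nascent strands, the short newly made DNA near replication start sites, were selected by size and by exonuclease digestion and then sequenced. Both libraries enter as 1 set of shared intervals, sorted into 6 replication timing classes from very early to very late, so no spread between replicates and no test over samples can be given. Error intervals below are exact 95% intervals for counting error only. They treat intervals as independent, which neighbouring intervals may not be.

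Common fragile sites are regions that form gaps or breaks on metaphase chromosomes when DNA synthesis is partly inhibited. Many coincide with very large genes that finish replication late. A replication fork must cross any stretch that holds no active origin, so the position of origins decides how far forks travel. A lack of initiation inside such genes, late replication and transcription across them are the properties most often discussed for these sites.

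All 7 genes held fewer nascent strand intervals per Mb than the DNA beside them. Together they held 7.196 intervals per Mb, against 22 in the 14 flanks, a ratio of 0.327 (exact 95% interval 0.254 to 0.417). The ratio of gene to flanks had a median of 0.215 over the 7 genes and ran from 0.0579 in CNTNAP2 to 0.585 in WWOX. In each of the 7 genes the density was also lower than in the upstream and in the downstream flank taken singly. Of 1331 genome windows of the median gene length of 1.9 Mb, 24.0% were less dense than each of their own flanks and 56.6% were less dense than the flanks together. For windows as long as the shortest and the longest gene, 26.9% and 23.8% were less dense than each flank. Among windows of the median length whose most frequent class was late or very late it was 43.6% of 211. The count against each flank was chosen after the values were seen. It is 6 of 7 with flanks of 0.5 Mb, with flanks of 2 Mb and with intervals of at least 200 bp. It is 5 of 7 when weaker peaks are dropped, that is, when the −log10 q must reach 5. In 4 genes the density was at or under 0.5 of the flanks, beside 21.7% of the windows. The 3 genes just outside that limit were FHIT, MACROD2 and WWOX, at 0.505, 0.573 and 0.585.

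**Figure D1:**
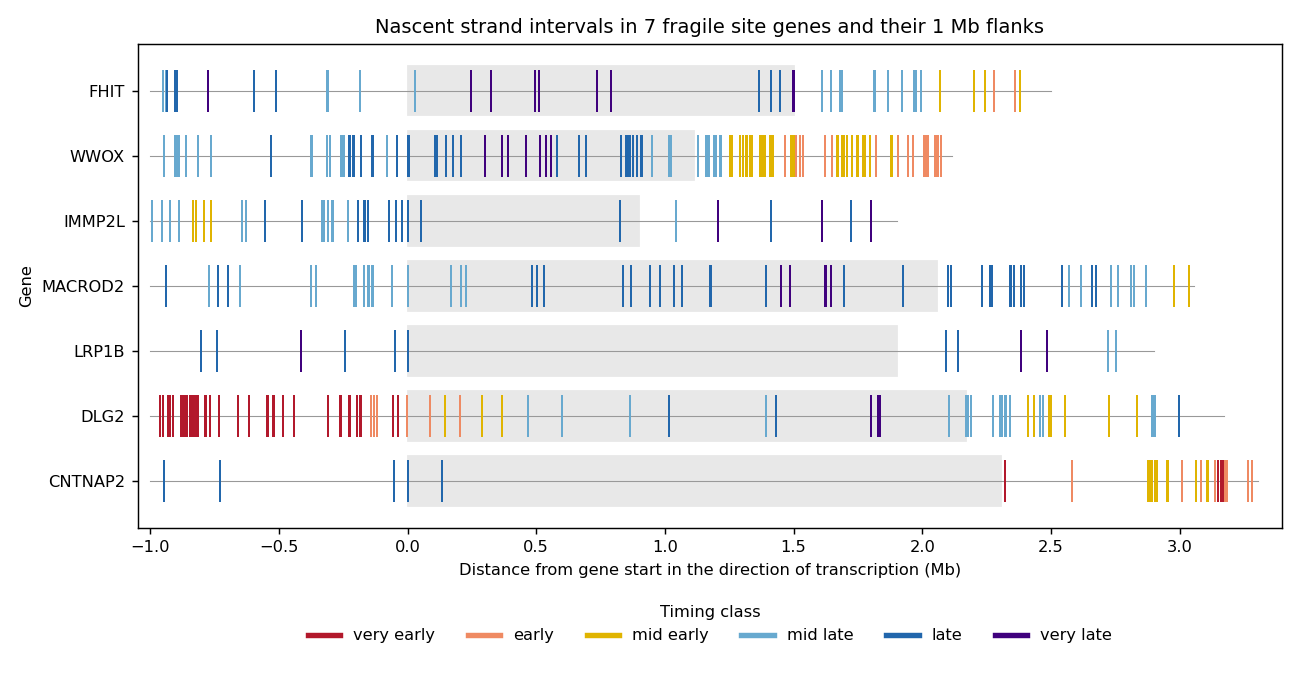
Position of each interval (vertical line, coloured by timing class) in the 7 genes (grey boxes) and their 1 Mb flanks, with distance from the gene start in Mb in the direction of transcription on the horizontal axis. LRP1B and CNTNAP2 hold 1 and 2 intervals, all within 132.1 kb of the gene start.

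The genes differed widely in density among themselves. WWOX held 26.9 intervals per Mb (18.2 to 38.4). MACROD2 followed with 11.2 (7.09 to 16.8), an interval that lies below that of WWOX. DLG2 and FHIT, at 7.37 and 7.32, could not be told apart from each other, and the interval of DLG2 (4.21 to 12.0) overlaps that of MACROD2. IMMP2L held 3.33 per Mb (0.687 to 9.74), CNTNAP2 0.868 (0.105 to 3.13) and LRP1B 0.526 (0.0133 to 2.93). Neighbours within these last 3 also overlap, while LRP1B and CNTNAP2 both lie below the interval of FHIT (3.66 to 13.1).

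**Figure D2:**
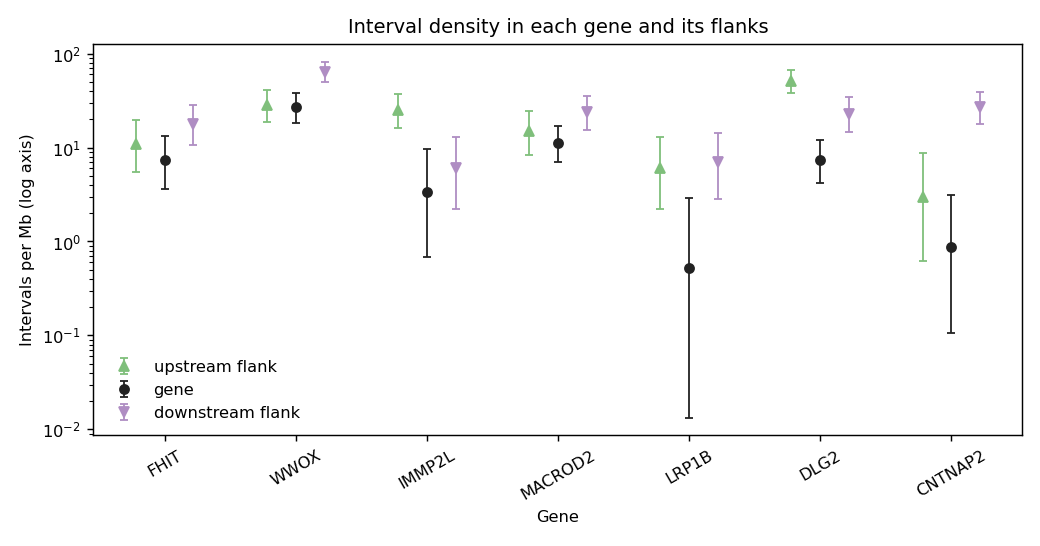
Intervals per Mb (log axis) in each gene (black circles) and in its upstream (green) and downstream (purple) 1 Mb flank, with exact 95% Poisson intervals for counting error. The black circle is the lowest of the 3 points for each of the 7 genes, and its error bar overlaps that of at least 1 flank for FHIT, WWOX, IMMP2L, MACROD2, LRP1B and CNTNAP2.

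LRP1B, a very large member of the LDL receptor family and a frequent site of deletion in tumours, held a single interval in 1.9 Mb (chromosome 2, 140989001 to 142889000). That interval, on chromosome 2 from 142887754 to 142888342, was late, 589 bp wide, had a fold enrichment of 8.63 and lay 0.658 kb inside the start of the gene. The other 1899 kb of the gene, 99.9% of its length, held none. Its flanks were sparse as well, with 6 intervals upstream and 7 downstream, so the ratio of 0.0810 rests on few counts (0.00190 to 0.539). With the outer 50 kb of the gene left out, no interval remained.

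CNTNAP2, which encodes the neurexin-related adhesion protein CASPR2 of axons, held 2 intervals in 2.305 Mb (chromosome 7, 145813001 to 148118000). Both were late, with folds of 3.90 and 5.37, and they lay at the start of the gene and 132.1 kb into it. The midpoint of the first is 0.003 kb inside the start, so its membership depends on the rounding of the bounds. The following 2173 kb, 94.3% of the gene, held no interval. This stretch ran on past the end of the gene, so a late interval borders it on the side of the start and a very early one, 15.4 kb beyond the gene, on the other. The upstream flank held 3 intervals, all late, and the downstream flank 27, all in the 3 earlier classes. The ratio to both flanks was 0.0579 (0.00670 to 0.228). With flanks of 0.5 Mb it was 0.289, because most downstream intervals lie in the outer part of the flank, and with flanks of 2 Mb it was 0.0289.

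DLG2, a scaffold protein of the postsynaptic density, held 16 intervals in 2.172 Mb (chromosome 11, 83166001 to 85338000), against 51 upstream and 23 downstream. The ratio was 0.199 (0.108 to 0.345). Without the weaker peaks it was 0.0921, and with the repeated lines of an interval also counted 0.1315. This was the only gene of the 7 with intervals of the earlier classes: along transcription, 5 early or mid early intervals between 86.5 and 365.2 kb gave way to mid late ones from 469.0 kb, a first late one at 1016 kb and 3 very late ones between 1802 and 1836 kb. The last 2 intervals of the gene were mid late again. Its upstream flank held 47 very early and 4 early intervals.

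FHIT, a hydrolase of diadenosine polyphosphates which spans one of the most breakable human sites, held 11 intervals in 1.502 Mb (chromosome 3, 59735001 to 61237000). The flanks held 11 upstream and 18 downstream. The ratio of 0.505 has an interval (0.228 to 1.04) that includes 1, the only such gene of the 7. With flanks of 2 Mb the ratio was 0.201, since the outer flanks are denser than the inner ones. Of its intervals 7 were very late, 3 late and 1 mid late. Folds ran from 2.94 to 6.66, with the highest in the mid late interval nearest to the gene start, on chromosome 3 from 61207742 to 61207969. That interval had no neighbour within 212 kb on either side.

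WWOX, an oxidoreductase with WW domains, was the densest of the 7 genes, with 30 intervals in 1.114 Mb (chromosome 16, 78133001 to 79247000). Upstream were 28 intervals in 1 Mb, and downstream 64. The ratio to both was 0.585 (0.374 to 0.893), and its difference from the upstream flank alone, 26.9 against 28 per Mb, is within counting error. Under 3 settings, among them flanks of 2 Mb, WWOX was denser than its upstream flank. The highest fold, 12.0, belonged to a late interval 911.7 kb into the gene, on chromosome 16 from 79044530 to 79044861, the last of 13 successive late intervals. Inside the gene 7 very late intervals between 299.9 and 558.3 kb stood between late ones on both sides, and 3 mid late ones closed the gene.

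MACROD2, which removes ADP-ribose from proteins, held 23 intervals in 2.058 Mb (chromosome 20, 13976001 to 16034000), against 15 upstream and 24 downstream. The ratio was 0.573 (0.327 to 0.984). Without the weaker peaks (−log10 q under 5) it was 0.972, with 9 intervals left in the gene, and with flanks of 2 Mb it was 0.273. Its strongest interval, at a fold of 15.2, overlapped the start of the gene, on chromosome 20 from 13975792 to 13976583. From the start, 4 mid late intervals were followed by 12 late, 5 very late and 2 late ones.

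IMMP2L, a subunit of the inner mitochondrial membrane peptidase, held 3 intervals in 0.9 Mb (chromosome 7, 110303001 to 111203000), all late. They lay 0.629, 51.7 and 826.5 kb from the gene start. Upstream were 25 intervals and downstream 6. The ratio was 0.215 (0.0421 to 0.689). Their folds of 3.13, 3.08 and 3.37 were all below the median of the flanks, 4.27, and none of the 3 had a −log10 q of 5. With every gene divided along transcription into 3 equal parts, no interval lay in the middle part of IMMP2L, LRP1B or CNTNAP2. Over all 7 genes the first, middle and last parts held 32, 23 and 31 intervals.

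Stretches without any interval took up most of the joint length of these genes, though not of WWOX. Empty stretches of at least 100 kb numbered 25 and covered 9.621 Mb, or 80.5% of the 7 genes, against 54.0% of the flanks. The share was higher in the gene than in its flanks for all 7, from 21.5% in WWOX against 19.3% to 99.97% in CNTNAP2 against 72.5%. In the genome 50.2% of windows of the median gene length were emptier than their own flanks, and 74.4% of those whose most frequent class was late or very late. Over 1471 genome windows of the median gene length that held an interval, the median share was 47.5%, with quartiles of 14.5% and 80.3%. Over the 295 of them that were mostly late or very late it was 89.1% (72.9% and 96.0%). The 80.5% of the genes together was lower, but it pools genes of unlike length and is not a median. It also includes DLG2, whose most frequent class was mid late, so late windows are not of like class for that gene. Set beside windows of its own length that held an interval, CNTNAP2 was as empty as the emptiest 0.741% and LRP1B as the emptiest 2.11%. By the same measure 64.8% of windows were as empty as WWOX. Windows without any interval, 79 of 1550 at the median gene length, were left out. As shares of all windows these values are therefore too low. Among late and very late windows 2.97% were as empty as CNTNAP2, 7.12% as LRP1B, 51.1% as IMMP2L and 68.7% as FHIT, and the shares for MACROD2, DLG2 and WWOX were higher still (72.9%, 73.1% and 92.6%). The longest stretch was 576 kb in FHIT, 138 kb in WWOX, 775 kb in IMMP2L, 307 kb in MACROD2, 1899 kb in LRP1B, 377 kb in DLG2 and 2173 kb in CNTNAP2. Counted to their full length beyond the gene bounds, those of CNTNAP2 (2188 kb) and LRP1B (2092 kb) ranked 26 and 29 among all 161747 stretches between neighbouring intervals, centromeres included. Only 113 of these stretches reached 1 Mb, and the median was 2812 bp.

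Peak names of replicate 1 carry numbers that rise along each chromosome. If the numbers were given without gaps, a missing number is a peak that was left out of the shared list. The IMMP2L stretch of 775 kb held no left-out peak, so by this count it was empty in replicate 1 alone too. The LRP1B stretch of 2092 kb held 1 left-out peak, and those of CNTNAP2 and FHIT held 4 each. Over the 25 stretches 27 peaks of replicate 1 were left out, and 12 stretches held none. The numbers spanned by a gene or flank run from its first to its last listed peak. Left-out peaks outside that span are not counted. Of the replicate 1 numbers spanned in the 7 genes 62.3% were listed (86 of 138), in the flanks 64.2% and in the genome 71.3%. In LRP1B and CNTNAP2 the spans held only the 1 and 2 listed peaks, without the left-out peaks of their long stretches. Among the other genes the share was lowest in FHIT, with 11 of 24 (45.8%), then WWOX, with 30 of 55 (54.5%). Peaks called in replicate 2 alone leave no trace in these numbers.

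Intervals stood close to the start of most of these genes. An interval lay within 1 kb of the start in 5 of the 7 genes, and within 1 kb of the other end in 1, FHIT. Of the positions on chromosomes 1 to 22 and X 13.03% lay within 1 kb of an interval. This background is over all positions, not over gene starts. Without hg19 annotation the share over all gene starts was not determined, so the count is not shown to be particular to these genes. The distance to the start was 0 in MACROD2 and CNTNAP2, 0.455 kb in IMMP2L, 0.658 kb in LRP1B and 0.754 kb in DLG2, where the interval lay outside the gene. In WWOX it was 2.47 kb and in FHIT 29.0 kb. The DLG2 interval was early, with a fold of 9.50, on chromosome 11 from 85338755 to 85339713. Bounds are rounded, and the gene lengths used differ from those of RefSeq by up to 2.18 kb (FHIT), so distances of this size are approximate. The limit of 1 kb was chosen after the distances were seen. Without the weaker peaks (−log10 q under 5) the count was 3 of 7 (MACROD2, LRP1B and DLG2).

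The promoter sequences are shown because 4 of the genes with an entry had an interval within 1 kb of the start, and FHIT, with none within 29.0 kb, serves for comparison. WWOX, at 2.47 kb, also had none within 1 kb, and its sequence is not shown. The promoter table used, from RefSeq (GRCh38.p14), was matched for 6 of the 7 genes, with LRP1B unmatched. Each line gives the 250 bases before the outermost start, 5′ to 3′ on the gene's strand, with GGGCGG, a box bound by Sp1 family factors, in capitals on either strand. These GRCh38.p14 positions were not converted to hg19: chr20:13995266-13995515 on the plus strand for MACROD2, chr7:146116551-146116800 plus for CNTNAP2, chr7:111562493-111562742 minus for IMMP2L, chr11:85628374-85628623 minus for DLG2 and chr3:61251453-61251702 minus for FHIT.
MACROD2: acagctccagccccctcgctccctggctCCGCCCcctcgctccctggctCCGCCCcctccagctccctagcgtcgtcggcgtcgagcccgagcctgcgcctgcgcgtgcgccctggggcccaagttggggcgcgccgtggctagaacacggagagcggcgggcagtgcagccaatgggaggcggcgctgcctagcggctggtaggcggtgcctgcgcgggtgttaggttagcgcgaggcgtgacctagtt
CNTNAP2: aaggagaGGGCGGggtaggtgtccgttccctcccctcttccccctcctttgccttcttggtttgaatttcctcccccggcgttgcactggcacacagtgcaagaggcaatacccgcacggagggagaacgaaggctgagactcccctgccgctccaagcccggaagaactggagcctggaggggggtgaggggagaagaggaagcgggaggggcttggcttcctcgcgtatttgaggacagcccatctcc
IMMP2L: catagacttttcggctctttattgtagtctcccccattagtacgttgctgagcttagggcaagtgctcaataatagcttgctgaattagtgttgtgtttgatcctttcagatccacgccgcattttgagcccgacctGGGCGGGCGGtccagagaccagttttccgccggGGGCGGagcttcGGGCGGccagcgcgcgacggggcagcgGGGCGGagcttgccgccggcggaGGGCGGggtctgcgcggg
DLG2: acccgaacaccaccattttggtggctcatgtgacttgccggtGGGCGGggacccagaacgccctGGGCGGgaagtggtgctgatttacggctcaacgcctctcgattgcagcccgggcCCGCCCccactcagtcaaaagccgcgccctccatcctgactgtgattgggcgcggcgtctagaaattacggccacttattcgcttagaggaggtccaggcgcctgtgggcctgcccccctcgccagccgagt
FHIT: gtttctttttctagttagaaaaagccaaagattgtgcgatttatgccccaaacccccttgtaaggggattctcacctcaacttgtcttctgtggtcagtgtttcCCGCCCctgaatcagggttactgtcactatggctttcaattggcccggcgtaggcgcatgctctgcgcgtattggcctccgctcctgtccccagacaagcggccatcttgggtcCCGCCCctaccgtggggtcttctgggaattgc
The G and C content of these 250 bases was 73.2% in MACROD2, 67.6% in WWOX, 64.0% in DLG2, 62.4% in CNTNAP2, 61.6% in IMMP2L and 54.0% in FHIT. FHIT was the only one of the 6 below the median of 58.0% over 35116 RefSeq promoters. WWOX, also without an interval within 1 kb of its start, was above that median. A relation of G and C content to intervals at the start was not tested. All 6 held GGGCGG at least once on either strand, from 1 match in WWOX and CNTNAP2 to 6 in IMMP2L, where 2 overlap each other. Of all promoters 42.6% held it. A match describes the letters only.

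Most intervals of the 7 genes belonged to the late classes. Late and very late together made up 67 of 86, or 77.9% (67.7% to 86.1%), against 20.8% of the flank intervals (16.4% to 25.7%) and 7.73% of the genome's. The share of both late classes was higher in the gene than in its flanks in all 7, as it was in 35.2% of the 1317 genome windows that could be compared in this way. Those windows are of every timing class, while most of the 7 genes were mostly late or very late. The value among late windows was not determined, so this background is not of like class. In FHIT the share of both late classes was 90.9% against 24.1%, in WWOX 90.0% against 10.9% and in MACROD2 82.6% against 46.2%. All intervals of IMMP2L, CNTNAP2 and LRP1B were late, against 45.2%, 10.0% and 84.6% in their flanks, but these genes held only 3, 2 and 1. In DLG2 most intervals were not late, with a share of 31.25% against 1.35%. Very early, early and mid early intervals together came to 5.81% in the genes (5 of 86, all in DLG2, with an interval of 1.92% to 13.05%) and to 49.4% in the flanks. No very early interval was found in any of the 7 genes, where 0 of 86 allows a share of up to 4.199% (exact upper bound). The sources used here do not say how the authors assigned the classes.

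**Figure D3:**
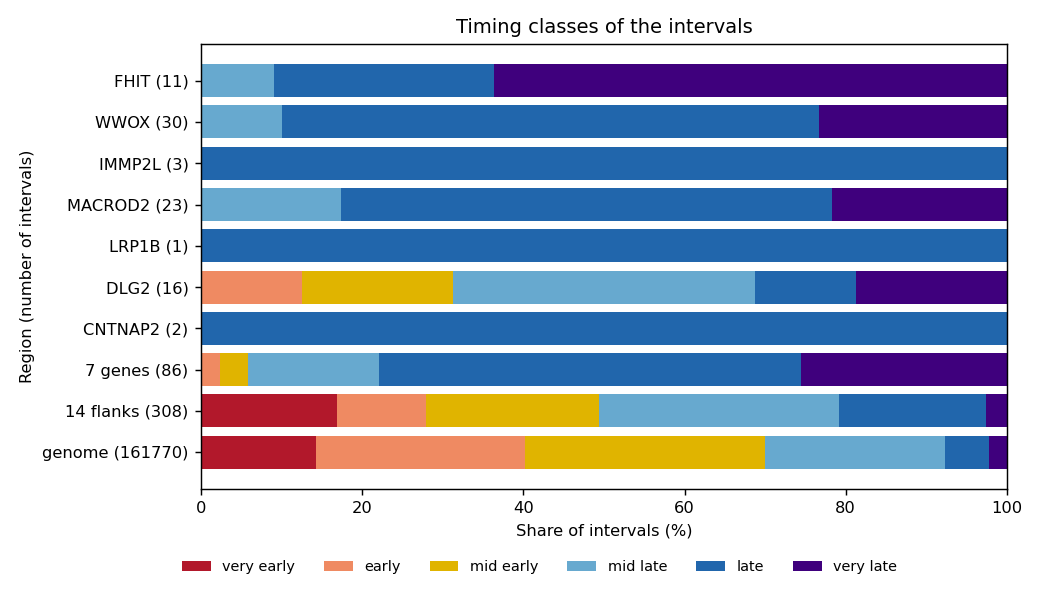
Share of intervals (%) in each timing class for each gene, the 7 genes together, the 14 flanks and the genome, with the number of intervals in brackets. Late and very late classes make up 77.9% in the genes, 20.8% in the flanks and 7.73% in the genome.

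At the time sampled, late windows of the genome had a low median density, although some of them were dense. The densities of the genes were therefore also set beside windows of like timing. Windows of 1.9 Mb whose most frequent class was late or very late had a median of 5.26 intervals per Mb (quartiles 3.16 and 12.1, 295 windows), against 26.3 over all 1471 windows. By windows of their own length, WWOX was as dense as or denser than 87.1% of late windows, MACROD2 than 73.3%, FHIT than 65.3% and DLG2 than 64.5%. IMMP2L, at 33.8%, lay below the median of late windows. LRP1B and CNTNAP2, at 3.73% and 3.39%, were among the sparsest. The most frequent class in DLG2 was mid late, so for it the late windows are not of like class. Windows of 1.9 Mb that were mostly mid late had a median of 17.4 per Mb (quartiles 8.42 and 46.8, 443 windows). DLG2, at 7.37, lay below their lower quartile. These positions are descriptions without a test, because the windows share chromosomes and 1 set of libraries.

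**Figure D4:**
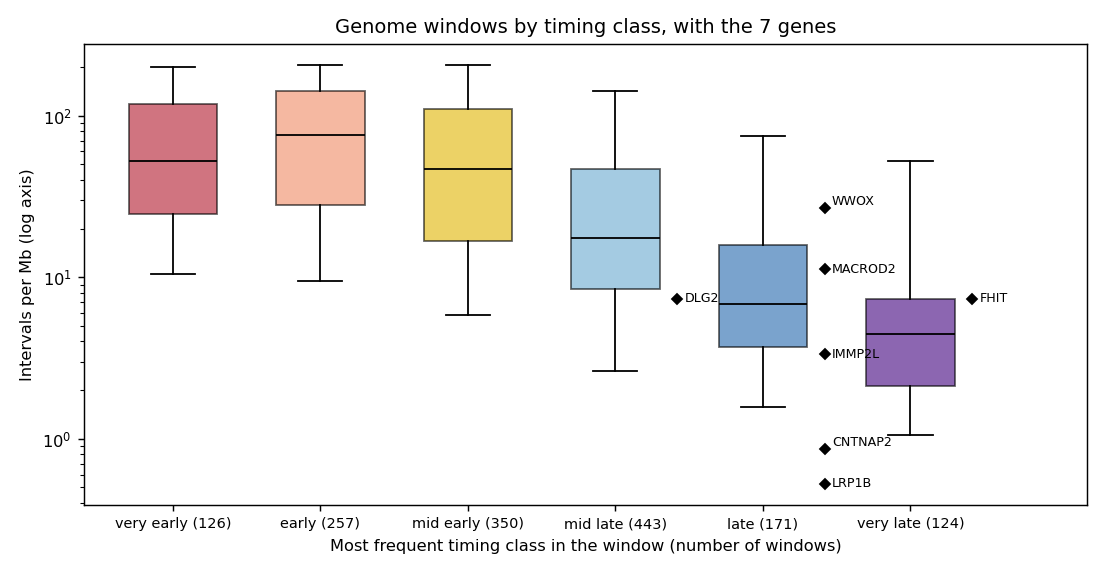
Intervals per Mb (log axis) in genome windows of 1.9 Mb that held an interval, by the most frequent timing class (boxes, quartiles and median; whiskers, 5th to 95th percentile), with each gene as a diamond at its own most frequent class. LRP1B, CNTNAP2 and IMMP2L lie below the box of late windows, and WWOX lies above it. DLG2 lies below the box of mid late windows.

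Fold enrichment differed less than density. Fold exists only for listed intervals, whose lowest values were 2.79 in the genes and 2.76 in the flanks. Signal too weak to be listed lowers the density and leaves no fold, so the 2 measures are not independent. The median fold of the replicate 1 peaks was 3.92 in the 7 genes (quartiles 3.38 and 5.08), 4.11 in the flanks (3.47 and 5.33) and 4.73 in the genome (3.79 and 6.38). The ratio of gene to flank medians had a median of 0.964 over the 7 genes. It was below 1 in 4 genes, from 0.734 in IMMP2L to 0.964 in FHIT, and above 1 in MACROD2 (1.22), CNTNAP2 (1.15) and LRP1B (1.89), the latter 2 resting on 2 intervals and 1. In all 7 genes but LRP1B and IMMP2L the quartiles of gene and flanks overlapped. The −log10 q reached 5 in 27.9% of the intervals in the genes, 33.4% in the flanks and 52.1% in the genome. Only 1 interval in the genes reached a fold of 20, a mid late interval of DLG2 at 20.7, 135 bp wide (chromosome 11, 84868904 to 84869038). Intervals of that strength made up 0.899% of the genome's.

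**Figure D5:**
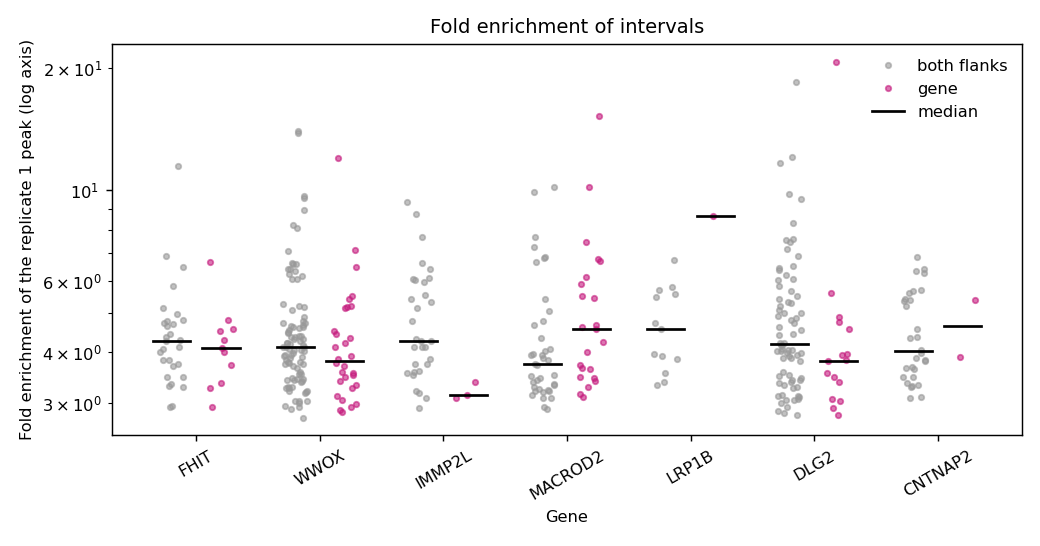
Fold enrichment of the replicate 1 peak (log axis) for each interval in the gene (pink) and in both flanks (grey), with medians as black lines; horizontal scatter within a column has no meaning. The points of gene and flanks overlap in all genes but LRP1B, whose single interval of 8.63 lies above its flanks.

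Intervals in the genes were also narrow. Their median width was 282 bp (quartiles 206 and 379), against 341 bp in the flanks and 558 bp in the genome. The difference from the flanks did not recur over the genes, since the gene median was the lower in only 3 of the 7. It was widest in DLG2, with 242 against 544 bp. Peaks of both libraries covered a median of 62.7% of an interval in the genes and 60.1% in the genome. Of the 86 intervals 8 (9.30%) had no neighbour within 100 kb on either side, 4 of them in DLG2, against 1.24% of the genome's.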

How the data were processed

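Nascent strand DNA of 2 U2OS libraries was sequenced. BWA and MACS2 on hg19 were used, per the submitters' processing notes, which give no versions. The authors deposited a list of broad peak pieces shared by both libraries and 6 lists of shared intervals by timing class. Peak names in the first carry the library name of replicate 1, so its fold ratio, −log10 p and −log10 q, as deposited, are those of whole replicate 1 peaks. The deposited scores were not used. The sources used here give neither read depth, nor a control library, nor whether the libraries came from separate cultures.

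Each interval name was counted once (21763 names stood on 2 lines), with the span of its lines and the earliest class listed for it. The class shares of the flanks and the genome were not recomputed with every line counted. An interval took the fold of the replicate 1 peak sharing most bases with it. Flanks are 1 Mb on each side. Windows tile chromosomes 1 to 22 and X, and ratios used windows whose flanks held at least 10 intervals. Strands came from RefSeq promoter entries, and for LRP1B from background knowledge. No hg19 annotation was used, so exons and introns were not assigned and other fragile site genes were not analysed here. The rule names 8 genes, of which 1 is not reported here and enters no value. The named items are the other 7, with the longest empty stretch, the strongest interval and the interval nearest the start of each. Genes and measures were chosen with earlier results of these data known. The density ratio with its counting interval, the search for empty stretches and the window ratios were checked on simulated intervals. None of these checks modelled clustering of intervals, and the other measures were not checked in this way. Calculations ran in Python 3.11.15 with pandas 2.3.3, numpy 2.4.6 and scipy 1.17.1, and figures were drawn with matplotlib 3.10.9.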

Additional observations from a re-analysis of the deposited data

How the results depend on the processing

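The density of the 7 genes together stayed below that of their flanks in all 9 alternatives, with ratios from 0.253 to 0.336. With flanks of 2 Mb it was 0.253, outside the counting interval of the main value. The median of the 7 ratios ran from 0.171 to 0.289, and no gene's ratio passed 1 in any alternative. The genes less dense than each flank numbered 5 to 7: WWOX was an exception in 3 settings, and MACROD2 (−log10 q of 5) and FHIT (flanks of 0.5 Mb) in 1 each. The genes at 0.5 or less numbered 4 to 6. Starts with an interval within 1 kb numbered 3 when the −log10 q had to reach 5 and 5 otherwise. The share of the genes in empty stretches ran from 68.2% with a minimum of 200 kb to 97.1% at that −log10 q, the share of the 3 earlier classes from 4.17% to 7.25%, and the fold ratio from 0.895 to 0.964. No paired analysis was possible because both libraries belong to 1 group and are deposited as 1 shared set; for the same reason neither replicate could be left out. Copy number and mappability of these genes in U2OS were not analysed here. The read depth is unknown, and cells were collected at a single time, 2 hours after release. An empty stretch therefore means only that no shared interval was listed there at that time. Later times were not sampled.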
